A study of Rattus norvegicus with 21 samples.

Results

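The genes described here are the ligands, latency proteins and receptors of the transforming growth factor beta (TGF-beta) pathway in rat islets of Langerhans, with 1 gene named for its induction by TGF-beta. They were taken from the count table by name: Tgfb1, Tgfb2, Tgfb3 and Inhba, Ltbp1 and Ltbp2, Tgfbr1, Tgfbr2 and Tgfbr3, and Tgfbi. All 10 names were found, each on 1 row, among 28914 gene rows. The islets came from Lewis rats 4 weeks after surgery, and the study asked how hyperglycemia affects islets. In the PX group (11 libraries) 90% of the pancreas had been removed by partial pancreatectomy. The sham group (10 libraries) had undergone the sham operation. Each label also gives an average BG before sacrifice, without a unit: 101 to 174 in PX animals (median 114.0) and 82 to 104 in sham animals (median 96.5). Both groups are bulk polyA RNA of isolated islets, so a fall in the number of cells of a type and a fall in RNA per cell cannot be told apart.

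TGF-beta ligands are secreted in a latent complex, in which the propeptide of the ligand holds it inactive and latent TGF-beta binding proteins tether the complex to the extracellular matrix. The released dimer binds the type II receptor, which recruits and phosphorylates the type I receptor, and the type I kinase then phosphorylates Smad2 and Smad3. In the pancreas the pathway is best known for the activation of stellate cells and fibroblasts and for matrix deposition, and activin, a related ligand, acts on islet cells through its own receptors.

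Library totals ran from 4001908 to 13187959 counts in PX and from 4695195 to 11266015 counts in sham. The insulin gene Ins1 had a median of 76057 CPM (the library's counts scaled to a common depth with TMM factors, here and throughout) in PX and 81016 in sham. Exocrine enzyme transcripts were present in every library: 18 acinar markers summed to 32476 to 837131 CPM in PX and to 3146 to 135444 CPM in sham, and the highest value, above the others, was in PX 65, whose size factor was 0.3587. A pair of libraries stood apart. PX 44 lay nearer the sham libraries, and sham 46 lay nearer the PX libraries, in several of the genes below. PX 44 also had the lowest summed macrophage and mesenchymal markers of its group, and sham 46 the highest of its group. The labels were kept, and the members' fold changes, and the counts that moved most, are also given without them, a setting chosen after seeing the data. Leaving out libraries that lie toward the other group tends to widen a difference. The p-values of that setting are therefore no independent support for it.

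The promoter windows of 4 genes are printed because they carry the main contrast, with the type I receptor lower in PX and the type II receptor, a latency protein and the induced gene higher. They are RefSeq sequences of the GRCr8 build, 250 bases before to 50 bases after the annotated start, written 5′ to 3′ on the strand of the gene. Capitals mark the motifs found: the GC box GGGCGG bound by Sp factors, also as its reverse complement, and the cAMP response element TGACGTCA. The windows are chr5:66449148-66449447 (plus strand) for Tgfbr1, chr8:124761420-124761719 (minus strand) for Tgfbr2, chr6:26177252-26177551 (minus strand) for Ltbp1 and chr17:7990064-7990363 (minus strand) for Tgfbi.
Tgfbr1: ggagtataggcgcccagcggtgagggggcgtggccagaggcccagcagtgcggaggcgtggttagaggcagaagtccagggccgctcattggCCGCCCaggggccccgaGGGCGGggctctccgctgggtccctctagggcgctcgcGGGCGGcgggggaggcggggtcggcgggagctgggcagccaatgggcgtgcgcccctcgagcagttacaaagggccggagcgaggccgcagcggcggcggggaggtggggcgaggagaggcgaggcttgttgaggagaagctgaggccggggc
Tgfbr2: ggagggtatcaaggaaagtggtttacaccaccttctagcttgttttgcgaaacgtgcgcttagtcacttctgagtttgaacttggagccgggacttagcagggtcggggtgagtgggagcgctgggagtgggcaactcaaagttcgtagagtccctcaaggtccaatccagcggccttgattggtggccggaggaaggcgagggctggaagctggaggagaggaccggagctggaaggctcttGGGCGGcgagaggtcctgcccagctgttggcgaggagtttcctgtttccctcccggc
Ltbp1: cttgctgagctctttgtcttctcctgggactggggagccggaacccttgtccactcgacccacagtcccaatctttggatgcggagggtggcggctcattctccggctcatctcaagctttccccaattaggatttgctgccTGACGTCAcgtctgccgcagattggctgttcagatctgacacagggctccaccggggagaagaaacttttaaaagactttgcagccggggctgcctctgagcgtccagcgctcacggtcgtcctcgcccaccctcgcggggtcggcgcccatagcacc
Tgfbi: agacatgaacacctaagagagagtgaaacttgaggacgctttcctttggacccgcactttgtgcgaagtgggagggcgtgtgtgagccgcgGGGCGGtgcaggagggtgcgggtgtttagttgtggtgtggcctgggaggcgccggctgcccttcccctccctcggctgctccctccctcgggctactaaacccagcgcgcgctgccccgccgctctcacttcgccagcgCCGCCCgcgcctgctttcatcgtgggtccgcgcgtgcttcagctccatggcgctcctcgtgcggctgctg

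All 10 genes had a RefSeq window, and 5 motifs were searched on both strands in all 33469 windows of the table. The GC box was in the windows of 5 genes (Tgfbr1, Tgfbr2, Tgfbr3, Ltbp2 and Tgfbi) and in 33.1% of all windows. Tgfbr1 held 3 of them, 158, 141 and 103 bases before the start, and its window was 74.7% G or C against a median of 51.7% over all windows. The cAMP response element was in Ltbp1 alone among the 10, 108 bases before the start, and in 1.83% of all windows. Inhba alone held TATAAA, 40 bases before the start, and the Smad-binding CAGA box, CAGACA, 2 bases before it. These were in 14.2% and 21.1% of all windows. The AP-1 motif TGANTCA was in none of the 10 and in 7.33% of all windows. No marked motif overlapped another, and Tgfb1, Tgfb2 and Tgfb3 held none of the 5. A match describes letters in the window, not a bound site.

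The 3 TGF-beta ligand genes differed in level and in direction. Tgfb3, on chromosome 6, was 1.63-fold higher in PX, Tgfb2, on chromosome 13, was lower on average without passing the test, and Tgfb1, on chromosome 1, had few counts in every library. Per kilobase of the gene's deposited length, Tgfb2 was the highest ligand in both groups, with 6.67 ± 1.56 CPM per kb in the 11 PX libraries and 8.42 ± 2.02 in the 10 sham libraries (mean ± SD). Tgfb3 had 4.75 ± 1.46 CPM per kb in PX and 2.92 ± 0.896 in sham, and Tgfb1 had 1.23 ± 0.725 in PX and 0.807 ± 0.285 in sham. The spreads of Tgfb2 and Tgfb3 overlapped in PX and did not overlap in sham.

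Tgfb3 ranged from 6.93 to 20.8 CPM in PX (median 12.4) and from 4.68 to 12.9 CPM in sham (median 7.02). The highest PX library was PX 41 and the highest sham library was sham 46. The groups overlapped: 4 of 11 PX libraries lay above every sham library, and 8 of 11 above every sham library but sham 46. In edgeR's quasi-likelihood test, adjusted by Benjamini-Hochberg over 13136 genes, the log2 fold change was 0.70 ± 0.19 (SE, adjusted p = 0.00616). Over those genes 14.9% were called higher in PX at an adjusted p below 0.05 and 16.2% lower. The change was 0.95 without PX 44 and sham 46 (adjusted p = 0.000117). It missed the threshold when scaled by library totals alone (0.46, adjusted p = 0.118) and with an acinar score as a covariate (0.51, adjusted p = 0.0774).

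Tgfb2 ranged from 20.3 to 39.2 CPM in PX (median 27.9) and from 16.5 to 52.2 CPM in sham (median 36.7). Of the PX libraries, 9 of 11 lay below the sham median, yet the lowest library of all was sham 46. The log2 fold change was -0.33 ± 0.15, with an adjusted p of 0.0957 in edgeR's test. Without sham 46 it was -0.37 (adjusted p = 0.0262), and without both PX 44 and sham 46 it was -0.41 (adjusted p = 0.00996). With limma voom and quality weights it was -0.44 (adjusted p = 0.00399). It was weaker with the acinar score as a covariate (-0.17, adjusted p = 0.503) and among PX animals of BG 121 or less (-0.20, adjusted p = 0.424).

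Tgfb1 had 5 to 42 counts in a PX library and 7 to 20 in a sham library, so its values are coarse. They ranged from 0.433 to 5.66 CPM in PX (median 2.26) and from 0.767 to 2.55 CPM in sham (median 1.48). PX 44 was the lowest of all libraries, and 4 of 11 PX libraries lay above every sham library. The log2 fold change of 0.63 ± 0.32 did not pass edgeR's test (adjusted p = 0.142). Without PX 44 it was 0.83 (adjusted p = 0.025), and without PX 44 and sham 46 it was 0.82 (adjusted p = 0.0294). With limma voom on every library it was 0.40 (adjusted p = 0.426).

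Inhba encodes the beta A subunit, whose dimer is activin A, and its transcript did not pass the count filter. A PX library held 4 to 59 of its counts and a sham library 1 to 19. Its level ranged from 0.52 to 6.6 CPM in PX (median 2.35) and from 0.127 to 1.82 CPM in sham (median 0.742). The 6 highest PX libraries lay above every sham library, led by PX 62 and PX 58, while 3 of 11 lay below the sham median. PX 62 and PX 58 also had the highest macrophage scores of the 21 libraries (5.898 and 5.448), with mesenchymal scores of 6.484 and 6.31. PX 38, at 4.34 CPM of Inhba, had a macrophage score of 3.792, and PX 65, at 1.27 CPM, had 4.725. The part of these cells in the level of Inhba was not tested. With no filter, the edgeR log2 fold change was 1.6 ± 0.45 (adjusted p = 0.0111).

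**Figure D1:**
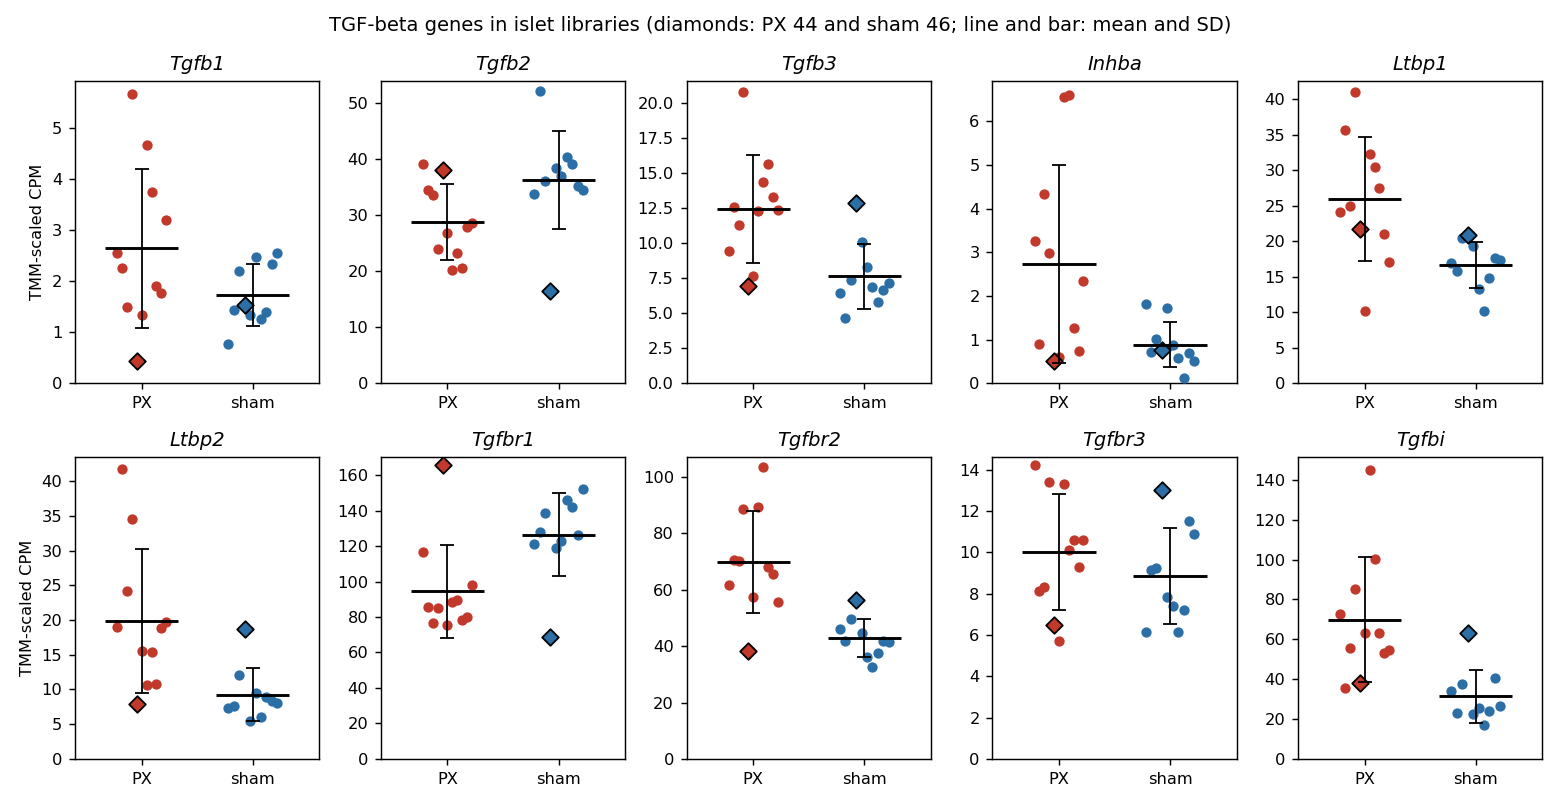
TMM-scaled CPM of the 10 genes in each PX and sham library on linear axes from 0, with the mean and SD of each group. PX 44 (diamond, PX) and sham 46 (diamond, sham) lie toward the other group in Tgfbr1, where PX 44 has 165.5 CPM and sham 46 has 68.6 CPM.

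Both latent TGF-beta binding proteins among the members rose in PX. Ltbp2, which binds fibrillin microfibrils and, unlike Ltbp1, does not bind the latent ligand, was 2.13-fold higher. Ltbp1, which is disulfide-linked to the latent ligand, was 1.56-fold higher. Both lie on chromosome 6, as does Tgfb3, in the count table. Outside the members, Ltbp3 was lower in PX, at -0.48 on the log2 scale (adjusted p = 0.0647), and Ltbp4 was at 0.69 (adjusted p = 0.0788). Neither was called in edgeR's test.

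Ltbp2 ranged from 7.97 to 41.7 CPM in PX (median 18.9) and from 5.53 to 18.7 CPM in sham (median 8.21). PX 37 was the highest library, PX 44 the lowest of its group and sham 46 the highest of its group. Above every sham library lay 6 of 11 PX libraries, and above every sham library but sham 46 lay 8 of 11. The edgeR log2 fold change was 1.09 ± 0.26 (adjusted p = 0.00306), and 1.42 without PX 44 and sham 46 (adjusted p = 5.4e-05).

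Ltbp1 ranged from 10.1 to 41 CPM in PX (median 24.9) and from 10.1 to 20.8 CPM in sham (median 17.1). Here 9 of 11 PX libraries lay above every sham library, and PX 57 and PX 70 did not. The edgeR log2 fold change was 0.64 ± 0.18 (adjusted p = 0.00937), and 0.77 without PX 44 and sham 46 (adjusted p = 0.00385). Scaled by library totals alone it was 0.42 and missed the threshold (adjusted p = 0.193).

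The receptors moved apart. Tgfbr2, the type II receptor that binds the ligand first, was 1.63-fold higher in PX, and Tgfbr1, the type I receptor kinase (ALK5), was 0.748 times its sham level. Tgfbr3, or betaglycan, a coreceptor that presents TGF-beta2 to the type II receptor, did not pass the test.

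Tgfbr2, on chromosome 8, ranged from 38.4 to 103.6 CPM in PX (median 68.2) and from 32.7 to 56.3 CPM in sham (median 41.9). PX 44 was the lowest PX library and sham 46 the highest sham library. The groups overlapped: 9 of 11 PX libraries lay above every sham library and 10 of 11 above every sham library but sham 46. The edgeR log2 fold change was 0.71 ± 0.14 (adjusted p = 0.000424), and 0.89 without the pair (adjusted p = 5.36e-06). Scaled by library totals alone it was 0.46 (adjusted p = 0.0888).

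Tgfbr1, on chromosome 5, ranged from 75.4 to 165.5 CPM in PX (median 85.5) and from 68.6 to 152.3 CPM in sham (median 127). The highest of all 21 libraries was PX 44 and the lowest was sham 46, and 10 of 11 PX libraries lay below the sham median. The edgeR log2 fold change was -0.42 ± 0.14 (adjusted p = 0.0234). Without PX 44 and sham 46 it was -0.54 (adjusted p = 2.73e-05). The call was sensitive to which libraries were fitted. It was lost without any one of sham 21, 22, 24, 73 or 74 or of PX 37, 38 or 41. There the log2 fold change was -0.34 to -0.37, with adjusted p from 0.0522 to 0.0791. In those 8 fits the median log2 fold change of all genes was 0.0061 to 0.0164, against -0.0402 with every library. Between 1304 and 1871 genes were called lower in them, against 2127. The median moved likewise without PX 36 (0.0095) and without sham 46 (0.0085), where the call was kept. The call was lost also with the acinar score as a covariate (-0.30, adjusted p = 0.175) and among PX animals of BG 121 or less (-0.29, adjusted p = 0.173).

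Tgfbr3, on chromosome 14, ranged from 5.72 to 14.2 CPM in PX (median 10.1) and from 6.12 to 13 CPM in sham (median 8.47). The ranges overlapped over most of their length, with 3 of 11 PX libraries above every sham library. The edgeR log2 fold change was 0.18 ± 0.17 (adjusted p = 0.455), and 0.38 without PX 44 and sham 46 (adjusted p = 0.0752).

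A ratio between a pair of genes in the same library does not depend on how libraries are scaled to each other. The counts of Tgfbr1 and Tgfbr2, each divided by gene length after adding 0.5 counts, gave a log2 ratio of -0.63 ± 0.65 in the 11 PX libraries and 0.47 ± 0.51 in the 10 sham libraries (mean ± SD). As linear ratios these are 0.644 in PX and 1.39 in sham. The difference of -1.11 had p = 0.00102 in a two-sided permutation test with 100000 resamples, and an adjusted p of 0.00408 over 4 ratios. In PX the log2 ratio ran from -1.28 in PX 62 to 1.03 in PX 44, and in sham from -0.79 in sham 46 to 1.08 in sham 49. Of the PX libraries, 6 of 11 lay below every sham library. Leaving out both exceptions gave a difference of -1.41. When single libraries were left out the difference ran from -1.27 to -1.04 and passed in each of the 21 cases.

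The ratio of Tgfbr3 to Tgfbr2 was also lower in PX, at -3.92 ± 0.38 on the log2 scale, than in sham, at -3.41 ± 0.30. The difference of -0.51 had an adjusted p of 0.0088 in the permutation test, with 4 of 11 PX libraries below every sham library. Between the ligands, the log2 ratio of Tgfb2 to Tgfb1 was 2.62 ± 1.21 in PX and 3.37 ± 0.69 in sham, a difference of -0.74 that did not pass (adjusted p = 0.137, permutation test). PX 44 had the highest value, 5.31, and without it the difference was -1.01 (adjusted p = 0.0134). The log2 ratio of Tgfb3 to Tgfb1 was 2.11 ± 0.70 in PX and 1.84 ± 0.63 in sham (difference 0.27, adjusted p = 0.371, permutation test).

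**Figure D2:**
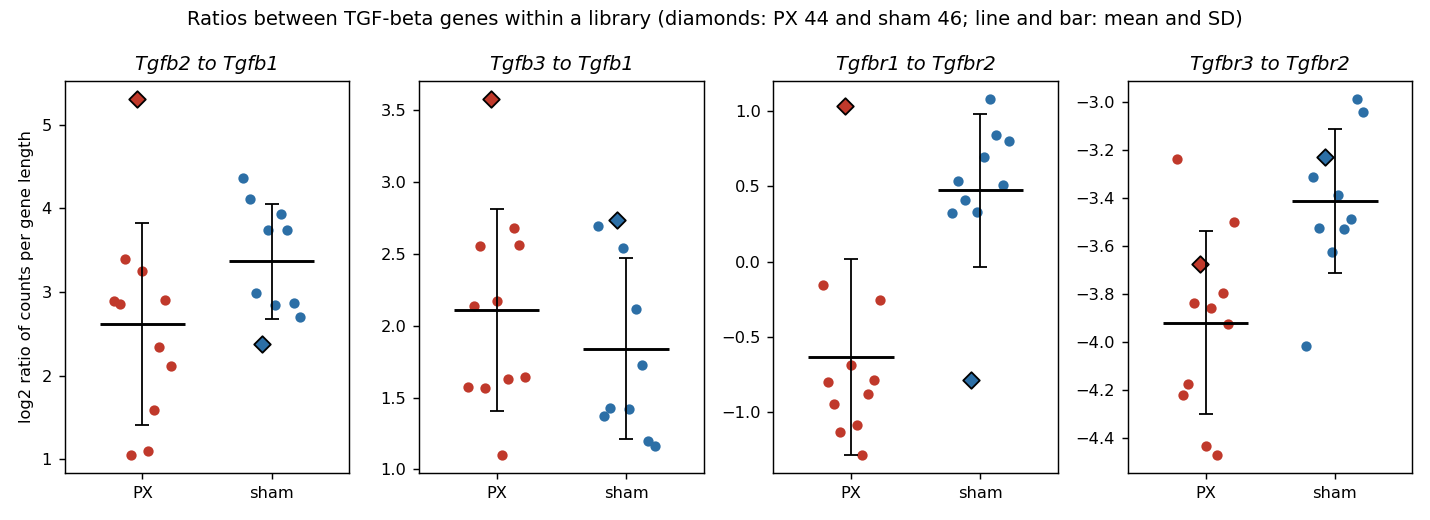
Log2 ratios of counts per gene length for 4 pairs of genes in each PX and sham library, with the mean and SD of each group. The ratio of Tgfbr1 to Tgfbr2 is below 0 in 10 of 11 PX libraries, all but PX 44, and above 0 in 9 of 10 sham libraries, all but sham 46.

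Tgfbi, a secreted matrix protein first cloned as a TGF-beta induced gene, was 2.22-fold higher in PX, close to the 2.13-fold of Ltbp2. It ranged from 35.4 to 145.2 CPM in PX (median 63.1) and from 17.0 to 63.0 CPM in sham (median 26.0). Every PX library lay above the sham median, 6 of 11 lay above every sham library and 9 of 11 above every sham library but sham 46. The edgeR log2 fold change was 1.15 ± 0.24 (adjusted p = 0.000908), and 1.46 without PX 44 and sham 46 (adjusted p = 2.73e-05). The highest libraries were PX 58 and PX 62, which had the highest macrophage scores of the 21 and mesenchymal scores of 6.31 and 6.484. The part of these cells in the level of Tgfbi was not tested.

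Of the 9 genes that passed the count filter, 5 were called higher (Tgfb3, Ltbp1, Ltbp2, Tgfbr2 and Tgfbi) and 1 lower (Tgfbr1), against 14.9% higher and 16.2% lower over all genes. Their median log2 fold change was 0.64, against -0.04 over all genes tested. None of the 9 had all PX libraries above all sham libraries, which 1.55% of genes had, and none had all PX libraries below them, which 0.145% of genes had. In the authors' deposited table, 9 of the genes were listed, all 9 with the direction found here and all 9 on the same side of an adjusted p of 0.05. The authors' deposited table gives 0.67 for Tgfbr2 (adjusted p = 0.000987) and -0.43 for Tgfbr1 (adjusted p = 0.0224) on the log2 scale.

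**Figure D3:**
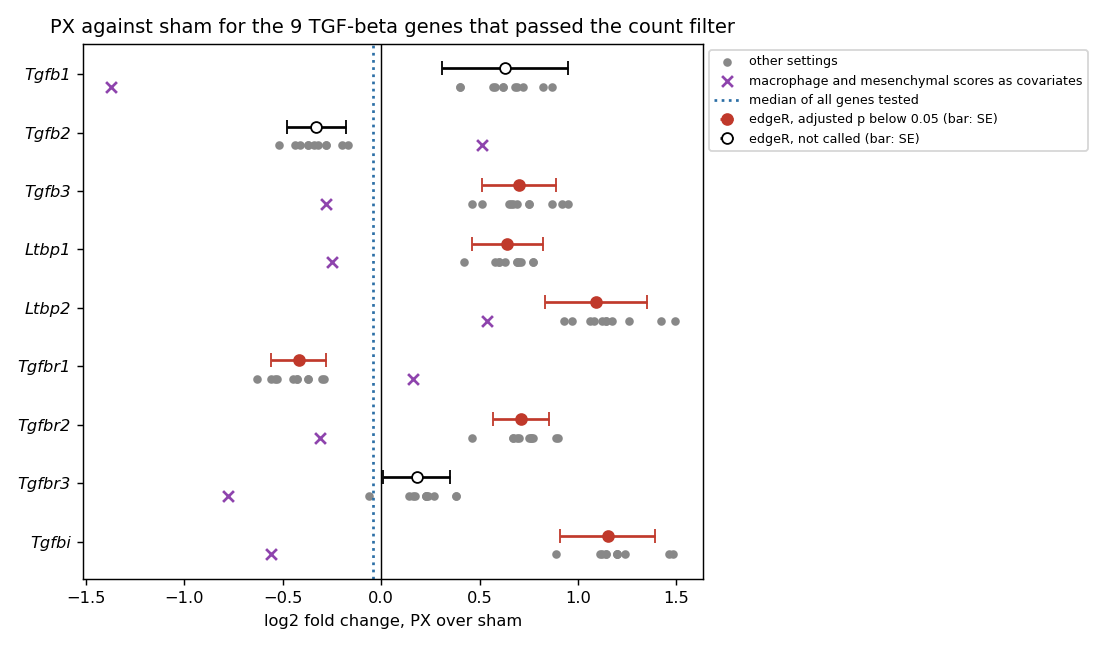
Log2 fold change of PX over sham with its SE for the 9 genes tested (red: adjusted p below 0.05), with the values under other settings below each. The 5 genes called higher lie between 0.64 and 1.15 and Tgfbr1 at -0.42; with covariates for the macrophage and mesenchymal scores (crosses) 8 of the 9 change sign.

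The order of the levels per kilobase differed between the groups. In PX it began with Tgfbi (26.1 ± 11.7 CPM per kb), Tgfbr2 (25.1 ± 6.53) and Tgfbr1 (16.1 ± 4.5). In sham it began with Tgfbr1 (21.6 ± 3.97), Tgfbr2 (15.4 ± 2.45) and Tgfbi (11.7 ± 4.99). In each group the ranges of mean ± SD of neighbours among these 3 overlapped. Tgfb2 followed them in both. The lowest in both was Inhba, at 1.07 ± 0.888 CPM per kb in PX and 0.346 ± 0.205 in sham.

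Markers of other cell types moved with these genes. For comparison, 14.9% of all genes tested were called higher in PX and 16.2% lower. All 14 macrophage markers tested were called higher in PX, with a median log2 fold change of 2.74, and their sum ran from 206.9 to 1935 CPM in PX and from 47.6 to 151.2 CPM in sham. All 13 mesenchymal markers tested were called higher, with a median of 2.01 and sums of 668.3 to 2975 CPM in PX and 227.5 to 787.8 CPM in sham. Pericyte markers were called higher for 6 of 8 (262.5 to 486.1 CPM in PX, 203.9 to 446.3 in sham), and endothelial markers for 6 of 10 (687.3 to 980.3 CPM in PX, 474.1 to 962.4 in sham). Duct markers were called higher for 4 of 6, from 248.6 to 460.5 CPM in PX and from 223.4 to 294.3 in sham. Scaled by library totals alone, 3 pericyte, 2 endothelial and 2 duct markers were called higher, and without PX 44 and sham 46 these were 8, 8 and 4. No lymphocyte marker passed the filter, and with no filter 4 were called higher, from few counts. Their sum had a median of 2.83 CPM in PX (0.677 to 13.3) and 0.535 CPM in sham (0.34 to 1.53). No marker tested was at 0 in every library. Of the 18 acinar markers 3 were called higher and 0 lower, with a median of 1.35, and in 11 of 21 fits that each left out a different library 0 were called higher. Without PX 44 and sham 46, 5 were. Of the 14 islet endocrine markers 1 was called higher and 3 lower, with a median of -0.11, and the call of the higher one was also lost in 11 of those 21 fits and without PX 44 and sham 46. With scores of the macrophage and mesenchymal lists entered as covariates, no member was called in either direction in edgeR's test and only 10 genes were called in all. The macrophage sums of the groups do not overlap, so surgery and these cells cannot be told apart in that fit. The part these cells have in the results was not tested.

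The latency and activation list, 14 other genes that hold, tether or release TGF-beta, had 9 called higher and 0 lower, with a median log2 fold change of 1.26. Without PX 44 and sham 46, 12 were called higher. Over all genes tested, 14.9% were called higher and 16.2% lower. With no filter, and with limma voom, 1 gene of the list was called lower, and 0 to 1 were when single libraries were left out. Mmp14, a membrane protease that can release latent TGF-beta, averaged 39.5 ± 21.6 CPM over the 11 PX libraries and 6.61 ± 1.97 CPM over the 10 sham libraries (mean ± SD), and all PX libraries lay above all sham libraries. Its log2 fold change was 2.58. Its lowest PX library had 11.1 CPM and its highest sham library 11.0, and 1.55% of all genes tested separated in this way. Nrros, which anchors latent TGF-beta on macrophages and microglia, had 17.1 ± 9.18 CPM in PX and 5.9 ± 1.43 in sham (log2 fold change 1.53). Fbn1, fibrillin-1, to which the binding proteins attach, had a log2 fold change of 1.63. Thbs1, thrombospondin-1, an activator of latent TGF-beta, had 1.26. Each of these 4 had an adjusted p below 0.05 in edgeR's test, in which the largest was Thbs1's 0.000163.

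All 18 TGF-beta target genes tested of 22 listed were called higher, with a median log2 fold change of 1.86. Over all genes tested, 14.9% were called higher, and the list was chosen with earlier results of these data known. Targets that also dampen the signal, such as Pmepa1, stand in the inhibitor list instead. In that list Smad7 was at 0.04 (adjusted p = 0.799) and Skil at -0.07 (adjusted p = 0.689), neither called in edgeR's test. Cnn1, Snai1, Snai2 and Cthrc1 did not pass the filter. Of these, Snai2 had a lower median in PX (0.841 CPM) than in sham (1.26 CPM), and the others had a higher one. Postn, periostin, a matrix protein of fibroblasts, averaged 91.2 ± 66 CPM in PX and 2.58 ± 3.04 CPM in sham, a log2 fold change of 5.08. Sphk1, sphingosine kinase 1, rose by 3.03 on the log2 scale from few counts, at 5.02 ± 3.10 CPM in PX and 0.587 ± 0.335 in sham. Adam19, a membrane metalloprotease, had 2.16, and Col1a2, a chain of type I collagen, had 2.45. In Postn and Adam19 all PX libraries lay above all sham libraries, as in 1.55% of all genes tested. In Adam19 the gap was narrow, with 6.5 CPM in the lowest PX library and 6.45 in the highest sham library. Sphk1 also separated, but its highest sham library had 1.31 CPM and its lowest PX library 1.39, levels at which counts are few. Many of these genes are also expressed by fibroblasts, whose markers rose beside them. The part of fibroblasts in the levels of the target genes was not tested. The summed list was lowest in PX 44 within PX, at 230.8 CPM, and highest in sham 46 within sham, at 459.3 CPM. Of 3 BMP target genes tested, Id3 (1.16) and Id2 (2.03) were called higher, and Id1 had a log2 fold change of 0.68 (adjusted p = 0.101, edgeR).

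Among the other ligands and receptors of the superfamily more genes were called lower than higher. The shares over all genes tested were 16.2% lower and 14.9% higher. Of 8 other ligands tested of 16 listed, 4 were called lower and 1 higher, with a median of -0.31. The number called lower was 2 without sham 74 and 2 among PX animals of BG 121 or less, and ran from 2 to 4 over the fits that left out single libraries. It was 3 without PX 44 and sham 46. Bmp3 fell by 0.86 on the log2 scale, Bmp5 by 0.82, Inha, the inhibin alpha subunit, by 0.54, and Gdf11 by 0.53, while Inhbb, the activin beta B subunit, was at 0.70 (adjusted p = 0.0497, edgeR), a call that was lost in 14 of 21 fits that each left out a different library. Of 9 other receptors tested, 4 were called lower and 1 higher, with a median of -0.27. The number called lower ran from 1 to 4 when single libraries were left out, and was 1 without sham 24, 73 or 74 or PX 41. Without sham 21, 22 or 46 or PX 36, 37, 38 or 44 it was 2. Without both PX 44 and sham 46, 3 receptors were called lower and 2 higher. Acvr1c, the type I receptor ALK7, averaged 6.74 ± 2.45 CPM in PX and 17.4 ± 4.33 CPM in sham, a log2 fold change of -1.36, and 10 of 11 PX libraries lay below every sham library. Acvr2b, an activin type II receptor, fell by 0.73 and Bmpr1a, a BMP type I receptor, by 0.25. Eng, endoglin, an endothelial coreceptor of TGF-beta, was the one called higher, at 0.58 (adjusted p = 0.00302, edgeR).

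Downstream, the Smad list had 6 genes tested, Smad1 to Smad5 and the anchor protein gene Zfyve9. Of these 1 was called higher and 1 lower, with a median of -0.12, against 14.9% higher and 16.2% lower over all genes. Smad3, which carries the TGF-beta signal, averaged 11.9 ± 4.47 CPM in PX and 6.56 ± 2.20 CPM in sham (log2 fold change 0.87). Smad5, which carries BMP signals, fell by 0.39. Smad4, the shared partner, had -0.21 (adjusted p = 0.0639) and Zfyve9, the SARA anchor protein, -0.20 (adjusted p = 0.133), neither called in edgeR's test. Of 16 inhibitors tested, 3 were called higher and 1 lower, with a median of 0.02. Pmepa1, a target gene that dampens Smad signalling, had 0.93, the corepressors Tgif2 and Tgif1 had 1.19 and 1.01, and the pseudoreceptor Bambi had -0.53. Without PX 44 alone, and without PX 44 and sham 46, 6 inhibitors were called higher and 2 lower, and 2 genes of the Smad list were called lower. Without sham 21, sham 22 or PX 41 no inhibitor was called lower, and scaled by library totals alone 1 was called higher and 2 lower and no Smad was called higher.

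**Figure D4:**
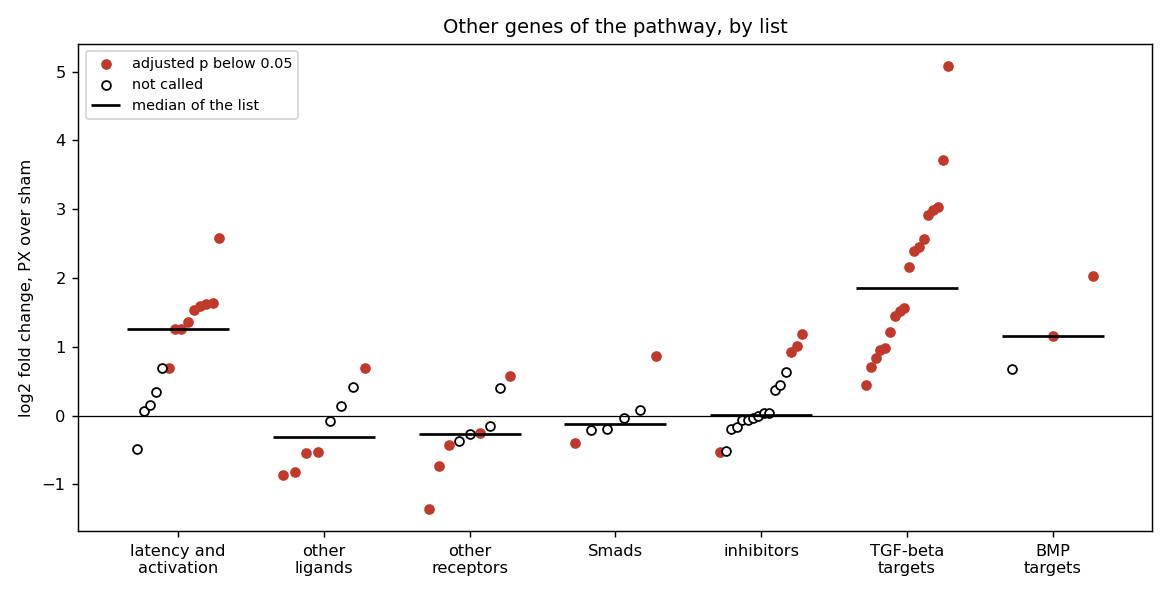
Log2 fold change of PX over sham for each tested gene of 7 pathway lists (filled: adjusted p below 0.05; line: median of the list). The 18 targets are all filled and above 0, and the medians of the other ligands (-0.31) and other receptors (-0.27) are below 0.

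The BG in the labels allows a further comparison, whether a gene changed with BG within an operation. No gene was called, member or other, in edgeR's test of the slope: 0% of 14442 genes within PX, 0% of 13766 within sham and 0% of 13136 for the difference of the slopes. At an unadjusted p below 0.05 there were 1756 genes within PX, 120 within sham and 145 for the difference, and 0 of the members in each. DESeq2 called 27 genes within PX and 0 within sham, none of them members, and limma voom called 0 in both. Within PX, edgeR itself called 6 genes with no count filter and 1 with the acinar covariate, again no members. The members with the lowest p within PX were Tgfb2, at -0.09 ± 0.04 log2 units per 10 BG units (p = 0.0626, adjusted p = 0.435), and Tgfbr1, at -0.08 ± 0.04 (p = 0.0677, adjusted p = 0.446). Tgfb1 had a slope of 0.08 ± 0.12, Inhba of -0.11 ± 0.18, Tgfb3 of 0.08 ± 0.05, Ltbp1 of 0.03 ± 0.07, Ltbp2 of 0.01 ± 0.10, Tgfbr2 of 0.02 ± 0.05, Tgfbr3 of 0.03 ± 0.06 and Tgfbi of 0.02 ± 0.08. Within sham the SEs were wider, from 0.14 for Tgfbr2 to 0.51 for Inhba, over a narrower BG range.

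**Figure D5:**
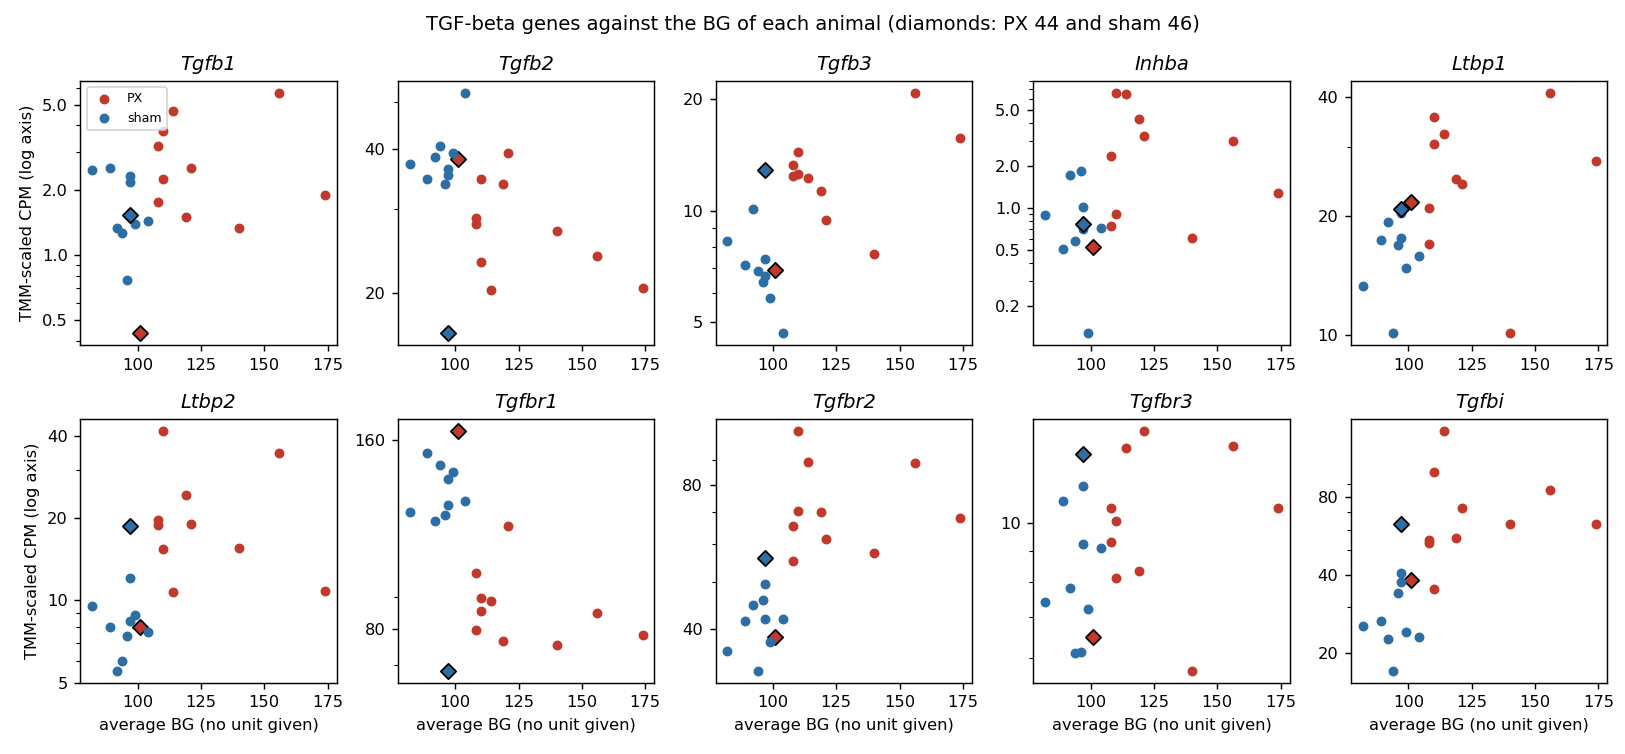
TMM-scaled CPM (log axis) of the 10 genes against the BG given for each animal, PX in red and sham in blue. Sham animals lie between 82 and 104 and PX animals between 101 and 174, and the PX library of highest BG, at 174, has 20.5 CPM of Tgfb2 and 78.1 CPM of Tgfbr1.

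Beyond the group difference, each tested gene was set beside the genes whose log2 CPM, centred on each group's mean, followed it most closely over the 21 libraries. The closest to Tgfbr2 were Tie1, an endothelial receptor kinase (r = 0.93), and Lmo2 (0.917). For Ltbp2 they were Col4a1, a basement membrane collagen chain (0.879), and Ttc28 (0.866). For Tgfbi they were Tubb6 (0.902) and Rasa3 (0.899), and for Tgfbr3 Heyl, a Notch target (0.879), and Rbms1 (0.837). Ltbp1 was closest to Frmd6 (0.874) and Ppfibp1 (0.861), Tgfb3 to Ptgfrn (0.862) and Cgnl1 (0.842), Tgfb2 to Tbc1d5 (0.89) and Rad51ap2 (0.888), and Tgfb1 to Ror2 (0.857) and Prag1 (0.856). Tgfbr1 followed Uba6 (0.902) and Dpy19l4 (0.894), and without PX 44 and sham 46 these were 0.67 and 0.522, while Tie1 stayed at 0.876 with Tgfbr2. All share the same libraries, depths and cell makeup, so these are descriptions.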

How the data were processed

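RNA-seq of rat islets was deposited as a table of counts per gene. Per the submitters' processing notes, the authors used Subread, featureCounts, limma and FastQC, and no version, genome build or strand setting is given in the sources used here. Per the labels' protocols the kit keeps strand. The authors also deposited a table of log2 fold changes with p-values and adjusted p-values, which was only copied. Coordinates printed are those of RefSeq's GRCr8 windows. The deposited gene lengths were used to scale counts per kilobase. Of the gene names, 2 stood on 2 rows each, none a member.

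Counts were fitted with edgeR 4.0.16 (robust quasi-likelihood, TMM, filterByExpr by group with a minimum count of 10), two-sided, with Benjamini-Hochberg adjustment over all genes tested and a threshold of 0.05. BG slopes were fitted per 10 units within each group. After a first run, their count filter was changed to the one made from the BG design, which tests all 10 members; the earlier filter is kept as an alternative and also called none. Ratios were tested by permutation with scipy 1.17.1. DESeq2 1.42.0 and limma 3.58.1 voom were alternatives, and the fits were tested on simulated data. The simulated BG slopes were larger than any member's slope within PX, and no differences in TMM factor were simulated. That check therefore does not show how well small slopes are found or how the scaling acts. Log2 CPM for likeness used a prior count of 2.

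Library totals of 4001908 to 13187959 counts limit genes of few counts, such as Tgfb1 and Inhba. The members and lists were chosen with earlier results of these data known. Named genes were the 10 members, up to 4 genes of each pathway list by smallest p, and the 2 genes most alike to each tested member, with Ins1 as a check of the tissue. Inhbb was named after its value was seen, as the one other ligand called higher. Smad7 and Skil were also named after their values were seen. The labels number the animals but do not say how cages or days were shared, so p-values measure the spread between these animals' libraries. The labels give no sequencing batch.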

Additional observations from a re-analysis of the deposited data

Results flagged for a closer look

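Among the 10 sham libraries, sham 46 stood apart in 5 of 14 measures checked, by a gap to the next library that was large against the range of the group. Chance flags about 1 in 20 groups when each is taken singly. The 14 measures share the same libraries, and the ratios are built from genes also checked. That rate therefore does not apply to the tally. Its Tgfb2 level was the lowest, at 16.5 CPM, with the next library at 33.8. Its Tgfbr1 level was the lowest, at 68.6 CPM, with the next at 119.0. Its Ltbp2 level was the highest, at 18.7 CPM, with the next at 12.1, and its Tgfbi level the highest, at 63.0 CPM, with the next at 40.8. Its log2 ratio of Tgfbr1 to Tgfbr2 was -0.789, the lowest, with the next at 0.322. The macrophage markers of sham 46 summed to 151.2 CPM and the mesenchymal markers to 787.8 CPM, the highest of the sham group in both. The part of these cells in the 5 values was not tested. Groups of more than 10 libraries, and so the PX group, were not checked in this way.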

How the results depend on the processing

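Leaving out each library in turn left 5 to 6 members called higher and 0 to 2 lower. With scaling by library totals alone, 2 members were called higher; under this scaling the median log2 fold change of all genes was -0.28, against -0.04 with TMM, and 990 genes were called higher and 2227 lower, against 1961 and 2127. Relative to that median, Tgfb3 was at 0.74, Ltbp1 at 0.70 and Tgfbr2 at 0.74, and Tgfbr3 at 0.22, although its own value was -0.06. DESeq2's size factors gave 2185 genes higher and 1646 lower. The acinar covariate gave 1305 and 951, PX animals of BG 121 or less 957 lower, voom quality weights 3692 lower, and single libraries left out 1304 to 2258 lower. Of the smaller pathway lists, the acinar covariate left 0 other ligands higher and 2 lower, 2 other receptors lower, 0 Smads and 1 inhibitor higher, while 8 to 12 latency and 13 to 19 target genes were called higher in every setting but the macrophage and mesenchymal one. Members called lower numbered 0 with the acinar covariate and 0 among PX animals of BG 121 or less. They numbered 2 with voom quality weights, 2 without PX 44 and sham 46, and 2 without PX 44, PX 65 and sham 46, the second being Tgfb2. With covariates for the macrophage and mesenchymal scores, 0 members were called higher and 0 lower, and the directions of Tgfb3 (-0.28), Ltbp1 (-0.25), Tgfbr1 (0.16), Tgfbr2 (-0.31) and Tgfbi (-0.56) were reversed, with adjusted p from 0.309 to 0.789; these scores follow the groups closely, and 0 of the 18 targets were called in that fit. The difference in the log2 ratio of Tgfb2 to Tgfb1 ran from -1.01 (without PX 44, where it passed) to -0.59 when single libraries were left out, and was -1.12 without PX 44 and sham 46. The cause of these changes was not tested. No member's BG slope was called under any alternative run. No paired analysis was possible because the animal numbers of the groups are not shared.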
